A study of Mus musculus with 4 samples.

Results

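Bone marrow keeps developing B cells in place, and lets them leave, through a small set of surface receptors and adhesion molecules. The genes described here are 9 of that set, chosen by name from the 55573 genes in the deposited tables: the chemokine receptors Cxcr4, Cxcr5 and Ccr7, the lipid receptors S1pr1 and Gpr183, the integrin chains Itga4 and Itgb1, the kinase Ptk2, and the transcription factor Klf2. All 9 were found, each under a single Ensembl identifier. They were measured by RNA sequencing in B cells sorted from mouse bone marrow as Fr.C+C', a gate of the Hardy scheme that takes in late pro-B cells and early pre-B cells. There were 2 libraries from C57BL/6 mice labelled as ADAR1 KO (KO 1 and KO 2) and 2 from wild type mice of the same strain (WT 1 and WT 2), all aged 8 to 12 weeks. ADAR1 is the enzyme, encoded by Adar, that edits adenosine to inosine in double-stranded RNA. How the allele was made, and whether it was deleted in B cells or in the whole mouse, is not stated in the sources used here. Nor is it stated that libraries of 1 group came from different mice, so p-values measure only library-to-library spread, which may be technical.

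As background, CXCR4 binds CXCL12 made by marrow stroma, and this signal, with the adhesion of the integrin VLA-4 (the pair of chains from Itga4 and Itgb1) to VCAM-1 and fibronectin, holds B cell progenitors in their niche. The kinase FAK, from Ptk2, works downstream of both in adhesion. S1PR1 senses sphingosine 1-phosphate, which is abundant in blood and lymph, and draws cells out of tissues, while CXCR5, CCR7 and the oxysterol receptor GPR183 (also called EBI2) place B cells in follicles and T zones of lymphoid organs once they have left. KLF2 is a zinc finger factor known, mainly from T cells, to switch on S1pr1 and to be lost on activation.

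Some facts of the whole series bear on what follows. The libraries held between 15120003 and 16413497 fragments assigned to genes, estimated from the steps of the low values. Adar itself was at 15.19 and 16.79 FPKM (fragments scaled to exon length and library size) in the KO-labelled libraries, against 15.04 and 14.62 FPKM in WT, so its transcript level gives no check of the knockout label, and a gene-level value would miss the loss of single exons. Markers of the gate were present, with Dntt, the terminal transferase of pro-B cells, at 141.6 and 111.25 FPKM in KO 1 and KO 2 and at 113.15 and 103.62 FPKM in WT 1 and WT 2, but so was the neutrophil transcript S100a9, at 15796 and 32346 FPKM in KO-labelled libraries and 11647 and 11187 FPKM in WT. KO 2 stood furthest from WT, with Spearman's rho across the 13281 genes tested, which are not replicates, of 0.92 and 0.913 to WT 1 and WT 2, where KO 1 had 0.955 and 0.957, so values are given for each KO-labelled library.

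The homing and retention genes spanned a wide range of levels, and no member passed the test between the groups. Cxcr4 was the highest, at 205.21 and 165.68 FPKM in KO 1 and KO 2 and at 208.01 and 259.52 FPKM in WT 1 and WT 2, above between 98.4% and 99.1% of all genes tested in each library. The group means of Cxcr4 were 185 ± 28.0 FPKM in KO and 234 ± 36.4 FPKM in WT (SD, n = 2). Both KO-labelled values lay below both WT values, KO 1 only just. The order of the KO means ran from Cxcr4 through Klf2, Itgb1, Itga4, Ccr7, Cxcr5, S1pr1 and Gpr183 to Ptk2. The library ranges of Itgb1 and Itga4 overlapped there, as did those of Cxcr5 and S1pr1, and other neighbours did not. In WT Itga4 and Itgb1 also overlapped but stood in the other order, and S1pr1 stood above Cxcr5 without overlap.

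**Figure D1:**
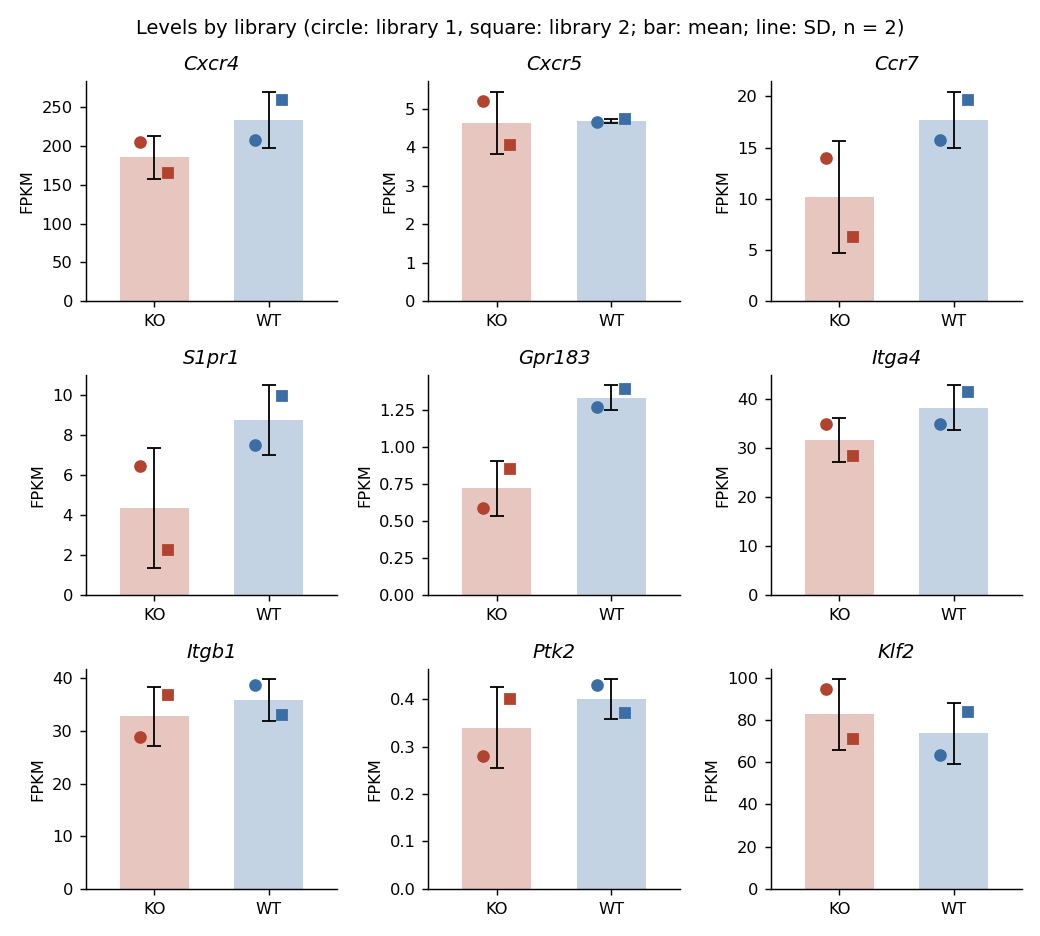
FPKM of the 9 genes in each library, with KO-labelled libraries on the left and WT on the right of each panel, bars at the mean and lines for the SD (n = 2). Cxcr4, Ccr7, S1pr1, Gpr183 and Itga4 have both KO-labelled points below both WT points, and in the other 4 genes the groups overlap.

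Of the 9 genes, 8 reached the filter of a mean of 1 FPKM in either group and were tested with limma on log2(FPKM + 1) among all 13281 such genes. None of the 8 passed at an adjusted p under 0.05, where 0.203% of all genes did (27 genes, all lower in KO). Also 0 of the 8 had an unadjusted p under 0.05, where 12.5% of all genes had, and 0 passed with voom on estimated fragments, where 0.0678% of all genes did. Adjusted p-values ran between 0.431 for S1pr1 and 0.96 for Cxcr5. In 5 of the 8 both KO-labelled libraries lay below both WT libraries, in 0 above, and in 3 the groups overlapped, while of all genes tested 31.7% lay below and 19.7% above. One of the 5, Gpr183, reached the filter only through its WT mean, and without it 4 of 7 lay below, with a median log2 change of -0.27. The log2 change was negative for 7 of the 8 (for 2 of the 8 with the B-lineage scaling used further on), with a median of -0.30, and for 61.7% of all genes, with a median of -0.09. The 95% intervals reached down to -2.04 (S1pr1) and up to 0.74 (Klf2), so the test does not show any of these genes to be equal in both groups.

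**Figure D2:**
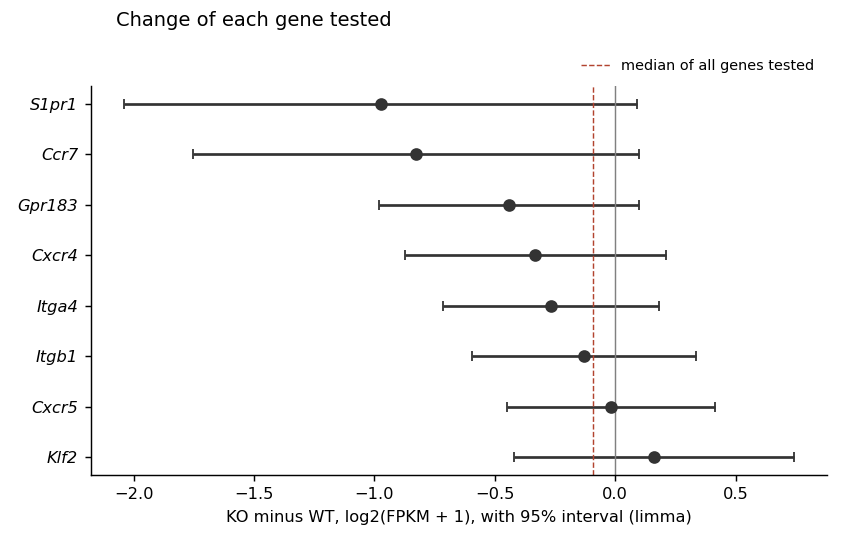
Log2 change (KO minus WT, log2(FPKM + 1) scale) of the 8 genes tested, with 95% intervals from limma, and a dashed line at the median of all genes tested (-0.09). Every interval includes 0, and those of S1pr1 and Ccr7 are the widest and lie furthest to the low side.

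Among the chemokine receptors, the changes of Cxcr4, Ccr7 and Cxcr5 differed in size. Cxcr4 (ENSMUSG00000045382, GRCm38 chromosome 1, 128588199 to 128592293, minus strand), the CXCL12 receptor, had a log2 change of -0.33 ± 0.21 (SE, 95% interval -0.87 to 0.21, adjusted p = 0.519 in limma). It rested on 5877 and 4529 fragments in KO 1 and KO 2 and on 5942 and 7701 in WT 1 and WT 2. Counting error is thus small for Cxcr4, and the spread is that between libraries.

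Ccr7 (ENSMUSG00000037944, chromosome 11, 99144196 to 99155077), which guides cells toward CCL19 and CCL21, was at 14.01 and 6.32 FPKM in KO 1 and KO 2, against 15.74 and 19.65 FPKM in WT 1 and WT 2. Its means were 10.2 ± 5.44 FPKM in KO and 17.7 ± 2.76 FPKM in WT (SD, n = 2). KO 1 was close to WT 1 and KO 2 was far below, and the log2 change of -0.83 ± 0.36 did not pass (adjusted p = 0.435, limma). Cxcr5 (ENSMUSG00000047880, chromosome 9, 44511787 to 44561877), the CXCL13 receptor of follicular B cells, was at 5.21 and 4.07 FPKM in KO and at 4.65 and 4.72 FPKM in WT. The KO-labelled libraries of Cxcr5 fell on either side of WT, with a log2 change of -0.02 ± 0.17 (95% interval -0.45 to 0.41, adjusted p = 0.96, limma). Of its 3332 exonic bases in the annotation, 110 are shared with Bcl9l on the other strand, and the sources used here do not say whether counting used strand.

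Of the lipid receptors, S1pr1 (ENSMUSG00000045092, chromosome 3, 115710433 to 115715072), the receptor for egress, had the lowest change of all members with both KO-labelled libraries in the fit. Without KO 2 the change of Gpr183 was lower, at -0.55 against -0.37 for S1pr1. S1pr1 was at 6.45 and 2.24 FPKM in KO 1 and KO 2, against 7.5 and 9.96 FPKM in WT 1 and WT 2, with means of 4.35 ± 2.98 FPKM and 8.73 ± 1.74 FPKM (SD, n = 2). The KO mean was thus 0.498 of the WT mean, but KO 1 alone was at 0.739 of it and KO 2 at 0.257. The log2 change was -0.97 ± 0.42 (95% interval -2.04 to 0.09, adjusted p = 0.431, limma), and these values rested on 311 and 103 fragments in KO and 361 and 498 in WT.

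Gpr183 (ENSMUSG00000051212, chromosome 14, 121952551 to 121965195) was near the filter, at 0.59 and 0.85 FPKM in KO 1 and KO 2 and at 1.27 and 1.39 FPKM in WT 1 and WT 2. It passed the filter only through its WT mean. It was the one member lower in KO 1 than in KO 2 among those below WT in both, and its log2 change was -0.44 ± 0.21 (adjusted p = 0.45, limma). At such a level the change depends on the scale, and it was -0.82 with a pseudocount of 0.1 and -0.91 with voom on estimated fragments, where it did not pass either. The KO mean was 0.541 of the WT mean. The values rested on about 27 and 37 fragments in KO and 58 and 66 in WT. The exact 95% Poisson intervals of these counts, which cover counting error only, were 17.8 to 39.3 and 26.1 to 51.0 in KO and 44.0 to 75.0 and 51.0 to 84.0 in WT, so those of KO 2 and WT 1 overlapped.

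The integrin chains were both well expressed. Itga4 (ENSMUSG00000027009, chromosome 2, 79255426 to 79333123), the alpha 4 chain, was at 34.86 and 28.43 FPKM in KO and at 35 and 41.49 FPKM in WT, a log2 change of -0.27 ± 0.18 (adjusted p = 0.525, limma). KO 1 and WT 1 were all but equal. Of the 13978 exonic bases of Itga4, 1124 are shared with Cerkl on the other strand, which was at 0.18 to 0.61 FPKM. Itgb1 (ENSMUSG00000025809, chromosome 8, 128685654 to 128733200), the beta 1 chain that pairs with many alpha chains, was at 28.88 and 36.80 FPKM in KO and at 38.70 and 33.02 FPKM in WT, a log2 change of -0.13 ± 0.18 (adjusted p = 0.731, limma). Its groups overlapped, with KO 2 between the WT values. The ratio of Itga4 to Itgb1 within a library was 1.21 and 0.773 in KO and 0.904 and 1.26 in WT, so neither chain was in steady excess.

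Ptk2 (ENSMUSG00000022607, chromosome 15, 73205102 to 73423280), which encodes FAK, was the lowest member and was not tested. It was at 0.28 and 0.40 FPKM in KO and at 0.43 and 0.37 FPKM in WT, from about 52 and 71 fragments in KO and 80 and 72 in WT over 11803 exonic bases. The groups overlapped. Its relative Ptk2b, which encodes the FAK-like kinase PYK2, was far higher per length, at 26.56 and 28.44 FPKM in KO and 27.08 and 30.88 FPKM in WT, with a log2 change of -0.07 ± 0.14 (adjusted p = 0.816, limma).

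Klf2 (ENSMUSG00000055148, chromosome 8, 72319033 to 72321656) was the only member with a positive change. It was at 94.44 and 70.81 FPKM in KO and at 63.45 and 84 FPKM in WT, with means of 82.6 ± 16.7 FPKM and 73.7 ± 14.5 FPKM (SD, n = 2). Each KO-labelled value was above WT 1, and KO 2 was below WT 2, so the groups overlapped (log2 change 0.16 ± 0.23, adjusted p = 0.73, limma). The direction turned, to -0.04, without KO 1 and likewise without WT 1. Klf2 and S1pr1, its known target in T cells, did not keep a steady ratio. Klf2 over S1pr1 was 14.6 and 31.6 in KO against 8.46 and 8.43 in WT. A two-sided exact permutation test gave p = 0.333, the smallest it can give with 2 libraries against 2. The part of cell makeup in this ratio was not tested.

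The result for Ccr7 and S1pr1 depended on which KO-labelled library was read. Without KO 1, which sets KO 2 alone against WT and assumes that it varies as the WT libraries do, 2 of the 8 members passed, where 12.2% of all genes did. They were Ccr7 (log2 change -1.34, adjusted p = 0.0405 in limma) and S1pr1 (-1.57, adjusted p = 0.0412). Without KO 2 neither passed, with log2 changes of -0.31 for Ccr7 (adjusted p = 0.476) and -0.37 for S1pr1 (adjusted p = 0.472), and 0.0602% of all genes did. The list of 25 B-lineage identity genes had medians of -0.12 in KO 1 and -0.97 in KO 2 against the WT mean on the log2 scale. Its summed level was 3324 and 1898 FPKM in KO against 3880 and 4023 FPKM in WT, with 14 of its 25 genes below both WT libraries in both KO-labelled ones, where 31.7% of all genes tested were, and none at 0 in any library. The 18 neutrophil markers had medians of 0.499 in KO 1 and 1.498 in KO 2, summed to 36630 and 74540 FPKM in KO against 27880 and 26070 FPKM in WT, and 17 of the 18 lay above both WT libraries, where 19.7% of all genes tested did, with none at 0. In bulk samples fewer cells of a type and less RNA per cell cannot be told apart, and the part of this makeup in the values of Ccr7 and S1pr1 was not tested.

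Some other marker lists lay to one side of WT as well, but not all. Of 8 T cell genes tested 1 lay above both WT libraries and 1 below, and of 5 endothelial and stromal genes tested also 1 above and 1 below. Cd3g reached the filter only through its WT mean, and without it 1 of 7 T cell genes lay above and 0 below. Col1a1 and Col1a2 reached it only through their KO means, and without them 1 of 3 endothelial and stromal genes lay above and 1 below. Of 13 monocyte and macrophage genes 4 lay above and 0 below, with a median of -0.21. Of 18 genes of maturing and mature B cells, stages in which Ccr7, S1pr1, Cxcr5 and Gpr183 are known to be expressed, 17 were tested, 10 below both WT libraries and 2 above. Their medians were -0.32 in KO 1 and -0.52 in KO 2, so this list was low in both, and its summed level was 464.5 and 532 FPKM in KO against 611.4 and 593.9 FPKM in WT. Fcer2a, the IgE receptor CD23 of mature B cells, was the 1 gene of this list that passed, at 0.22 and 0.17 FPKM in KO and 4.03 and 3.82 FPKM in WT (adjusted p = 0.0476, limma). Of 9 plasma cell genes 8 were tested, 6 below and 1 above. KO 1 had a median of -0.29 and KO 2 one of -1.39, and the list summed to 223.6 and 137.5 FPKM in KO against 329.6 and 346.7 FPKM in WT. Jchain, the joining chain of secreted antibodies, fell to 0.25 and 0.45 FPKM in KO, against 105.85 and 91.45 FPKM in WT (adjusted p = 0.00135, limma), while Tnfrsf17 stood at 0 FPKM in each KO-labelled library. Fcer2a, Jchain and Tnfrsf17 reached the filter only through their WT means. Without them 9 of 16 genes of maturing and mature B cells lay below and 2 above, and 4 of 6 plasma cell genes lay below and 1 above. Of 12 erythroid genes 11 were tested, 9 below and 0 above, and here KO 1 was the lower library, its median being -1.24 where that of KO 2 was -0.56. The erythroid genes summed to 349.6 and 657.2 FPKM in KO against 1330 and 774.2 FPKM in WT. Genes of plasmacytoid dendritic cells lay above WT in 7 of 8, and those of NK cells in 6 of 9. The shares of all genes tested were 31.7% below and 19.7% above. The part of these lists in the values of the homing and retention genes was not tested.

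**Figure D3:**
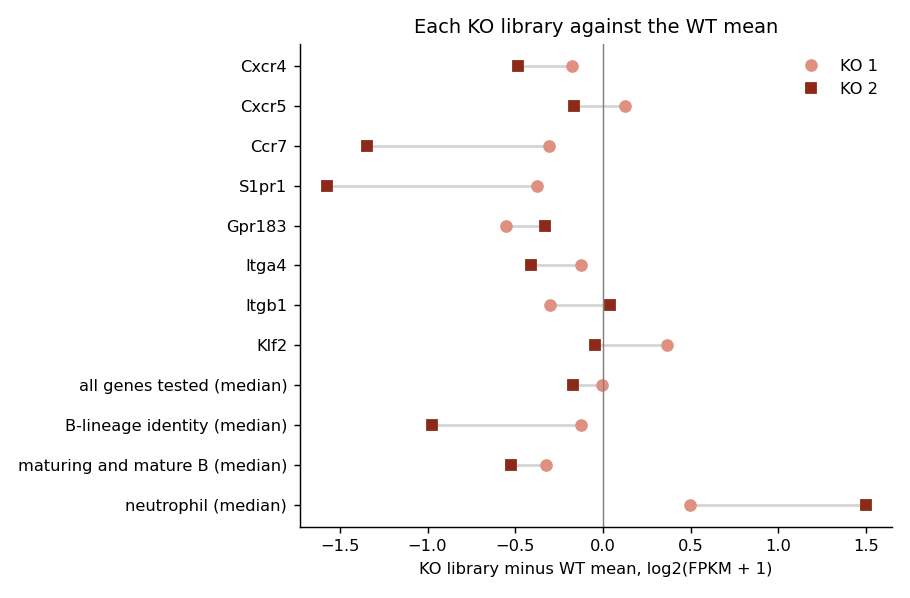
Difference of KO 1 (circles) and KO 2 (squares) from the mean of the WT libraries, on the log2(FPKM + 1) scale, for the 8 genes tested and for the medians of all genes and of 3 marker lists. Ccr7 and S1pr1 are much lower in KO 2 than in KO 1, as is the B-lineage median (-0.97 against -0.12), while the neutrophil median is higher in KO 2 (1.498 against 0.499).

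Scaled to the B-lineage list, the members split. This scaling sets the median of 25 B-lineage genes equal in all libraries and raises every log2 change by 0.61. Ccr7 then stood at 3.76 and 3.60 in KO and 3.80 and 4.0 in WT on the log2 scale, and S1pr1 at 2.75 and 2.43 in KO and 2.82 and 3.09 in WT. Both thus remained below WT in both KO-labelled libraries, KO 1 only just. Of all genes 2.02% did so, a share made small by the rise of every change, and B-lineage genes were not counted apart. Cd22 and Spib, B-lineage genes close to S1pr1 in profile, had log2 changes of -1.02 and -0.92 before scaling. With the rise of 0.61 theirs stayed negative too. Other genes of that list went the other way, its median after scaling being 0.02. The log2 changes of Ccr7 and S1pr1 were then -0.22 and -0.37, and neither passed (adjusted p = 0.727 and 0.624, limma). Cxcr5, at 2.49 and 3.07 in KO and 2.23 and 2.15 in WT, and Klf2, at 6.43 and 6.90 in KO and 5.74 and 6.04 in WT, lay above WT in both, as did 62.6% of all genes. The other 4 overlapped, among them Cxcr4, at 7.54 and 8.11 in KO and 7.44 and 7.66 in WT. With this scaling the log2 changes of Cxcr4, Gpr183, Itga4, Itgb1 and Cxcr5 were positive, and 0 of the 8 members passed, where 1.88% of all genes did.

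**Figure D4:**
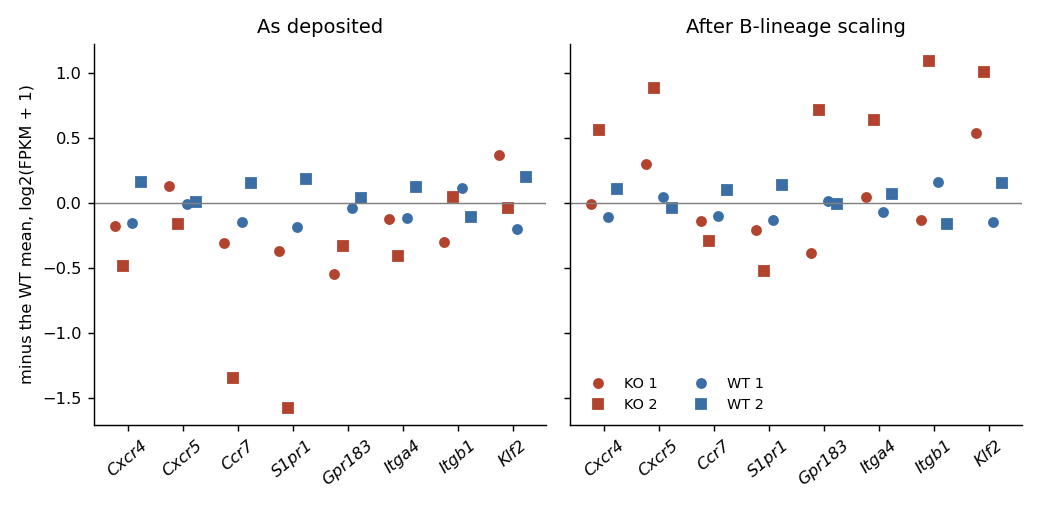
Each library's difference from the WT mean on the log2(FPKM + 1) scale for the 8 genes tested, on the values as deposited (left panel) and after scaling to the B-lineage list (right panel). Ccr7 and S1pr1 stay below WT in both KO-labelled libraries in both panels, while Cxcr5 and Klf2 lie above WT in both after scaling.

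Ratios within a library do not depend on such scaling. In bulk samples the makeup of cells can still change them, and its part in these ratios was not tested. The ratio of Cxcr4 to S1pr1, a marrow retention receptor over an exit receptor, was 31.8 in KO 1 and 74.0 in KO 2, against 27.7 in WT 1 and 26.1 in WT 2. Cxcr4 over Ccr7 was 14.6 and 26.2 in KO, against 13.2 in both WT libraries. Both KO-labelled libraries were above both WT libraries in each, and KO 1 was close to WT. A two-sided exact permutation test of each gave p = 0.333, the smallest it can give with 2 libraries against 2. S1pr4, another sphingosine 1-phosphate receptor of blood cells, neutrophils included, was at 44.56 and 46.67 FPKM in KO and 38.06 and 36 FPKM in WT, and its ratio to S1pr1 was 6.91 and 20.8 in KO against 5.07 and 3.61 in WT.

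The ratio of Cxcr4 to Itga4 hardly varied. It was 5.89 and 5.83 in KO and 5.94 and 6.26 in WT, with both KO-labelled values below both WT values by a small margin. This pair was chosen after its values were seen. Its centred log2 profiles over the 4 libraries were 0.086 apart, the nearest of any 2 members, and of all genes tested 23 were nearer to Cxcr4 than Itga4 was, and 101 nearer to Itga4 than Cxcr4 was. Ccr7 and S1pr1 were the next nearest pair, 0.193 apart.

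**Figure D5:**
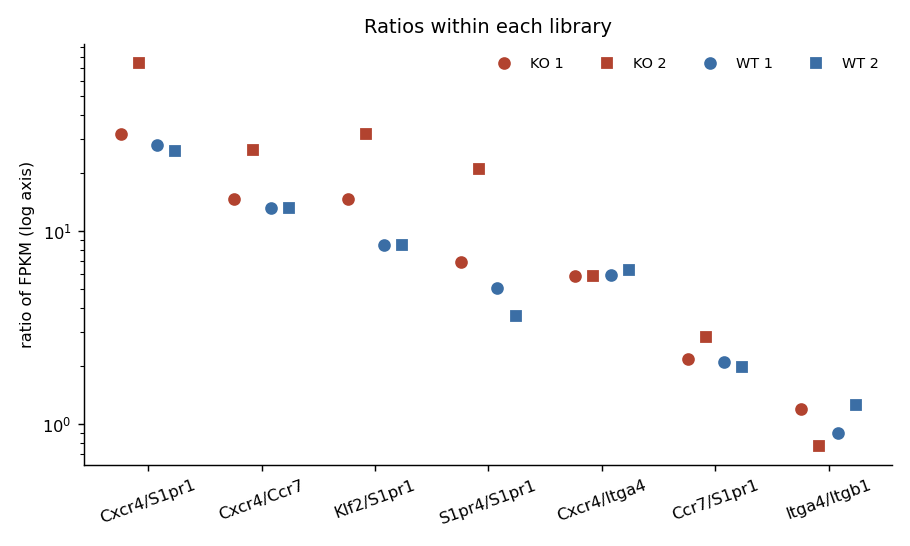
Ratios of FPKM between pairs of genes within each library on a log axis, KO-labelled libraries in red and WT in blue. Cxcr4/S1pr1, Cxcr4/Ccr7, Klf2/S1pr1 and S1pr4/S1pr1 are highest in KO 2, while Cxcr4/Itga4 stays between 5.83 and 6.26 in all libraries.

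The promoters of Cxcr4 and Itga4, the pair with the even ratio, are shown as a description, and whether they bear on that ratio was not tested. Each runs from 250 bases before to 50 after the start (RefSeq, GRCm38.p6, 5′ to 3′ on the gene's strand). Capitals mark the letters CACCC or its reverse complement GGGTG, the core of sites bound by KLF factors. The Cxcr4 window is chr1:128592250-128592549, minus strand, and the Itga4 window is chr2:79255176-79255475, plus strand.
Cxcr4: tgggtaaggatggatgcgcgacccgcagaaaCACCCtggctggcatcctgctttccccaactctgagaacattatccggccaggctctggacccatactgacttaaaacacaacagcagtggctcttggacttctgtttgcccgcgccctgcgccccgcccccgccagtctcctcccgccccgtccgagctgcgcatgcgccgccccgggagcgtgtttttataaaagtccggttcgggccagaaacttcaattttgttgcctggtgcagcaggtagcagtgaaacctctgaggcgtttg
Itga4: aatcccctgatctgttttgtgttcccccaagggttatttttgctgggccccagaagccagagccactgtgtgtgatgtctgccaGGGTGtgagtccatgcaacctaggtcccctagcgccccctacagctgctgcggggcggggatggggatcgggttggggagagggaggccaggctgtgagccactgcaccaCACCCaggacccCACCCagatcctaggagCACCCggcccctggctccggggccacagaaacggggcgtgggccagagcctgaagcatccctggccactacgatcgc
Cxcr4 holds 1 copy and Itga4 holds 4. Promoters were at hand for 5 of the 9 members, and 4 of them (Cxcr4, Itga4, Itgb1 and Klf2, but not Gpr183) hold the letters on either strand, as do 57.5% of all 32851 promoters in the table. The FOXO letters GTAAACA and the NF-kappaB motif, both of which can overlap the marked letters at an end, were in 0 of the 5, and in 3.65% and 1.63% of all promoters on either strand. Matches are descriptions of these windows. The base composition of the windows was 59.3% G and C for Cxcr4 and 64.3% for Itga4, against a median of 52.7% over all promoters.

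Among 225 tested genes of the related and marker lists, the ones most like each member over the 4 libraries were named by the distance between centred log2 profiles, as a description. S1pr1 was nearest to Cd22 (0.109), an inhibitory receptor of B cells, and to Spib (0.111), a transcription factor of B cells, and Ccr7 to Sdc1 (0.097) and to Il7r (0.099), the interleukin 7 receptor chain. Cd22 was at 26.19 and 10.77 FPKM in KO and 32.56 and 38.32 FPKM in WT, low in KO 2 as S1pr1 was. Cxcr4 was nearest to Ciita (0.127) and Plpp3 (0.128), Itga4 to Plpp3 (0.055) and Nedd9 (0.145), and Cxcr5 to Grk2 (0.081) and Git2 (0.092). Gpr183 was nearest to Spp1 (0.134) and Itgav (0.203), Itgb1 to Klrk1 (0.084) and Ackr1 (0.136), and Klf2 to Itga6 (0.244) and Klrb1c (0.303). Except for S1pr1 and Ccr7, where at most 4 of all genes tested were nearer than these, at least 18 other genes were nearer in each case.

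The rest of the homing machinery was read from 7 lists, none of whose genes passed over all genes tested (limma). Their medians are on the deposited scale, and B-lineage scaling raises each by 0.61, which turns those of ligands and of lipid handling positive. The ranges given with them are over the other settings. Of all genes tested 19.7% lay above both WT libraries and 31.7% below, and the counts of each list are to be read against these shares. Other chemokine receptors had 12 of 20 tested, 7 above both WT libraries and 2 below, and a median log2 change of 0.39. That median ran from 0.10 with no filter to 0.88 with the stricter filter (5 FPKM in place of 1), and was 0.15 without KO 2 and 0.56 without KO 1. Cxcr1 reached the filter only through its KO mean and Ccr10 only through its WT mean, and without both genes 6 of 10 lay above and 1 below. Cxcr2, a neutrophil receptor that is also in the neutrophil list, was at 53.02 and 107.3 FPKM in KO and 26.01 and 30.84 FPKM in WT (log2 change 1.38 ± 0.35, adjusted p = 0.34, limma). Ccr1, Cxcr1 and Ccr3, receptors of myeloid cells, had log2 changes of 1.12, 1.04 and -0.95. These receptors mark myeloid cells, of which the neutrophil list was higher in both KO-labelled libraries. The monocyte and macrophage list differed, its median against the WT mean being -0.57 for KO 1 but 0.10 for KO 2. The part of those cells was not tested.

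Of 12 ligands and adhesion partners 6 were tested, 2 above and 2 below WT (19.7% and 31.7% of all genes tested), and their median was -0.31. It ran from -0.53 with the stricter filter to 0.057 without WT 1, and was -0.042 with no filter and -0.0094 without KO 1, so its direction rested on single libraries. Ccl19, Ccl20 and Ccl21a were listed at 0 in every library. Vcam1, the VLA-4 ligand, was at 11.44 and 21.31 FPKM in KO and 31.76 and 17.92 FPKM in WT, Spp1 at 5.06 and 5.74 FPKM in KO and 8.18 and 8.76 FPKM in WT, and Fn1, fibronectin, at 13.86 and 29.04 FPKM in KO and 9.8 and 10.8 FPKM in WT. None of these 3 passed (adjusted p = 0.529, 0.344 and 0.395, limma), and Icam2, at 23.08 and 14.59 FPKM in KO and 25.23 and 28.89 FPKM in WT, did not either (0.441).

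Genes of sphingosine 1-phosphate and oxysterol handling had 12 of 16 tested, 3 above and 4 below WT (19.7% and 31.7% of all genes tested), and a median of -0.04. That median was positive with the stricter filter (0.22), rescaling without the neutrophil list (0.08), no filter (0.046), median centring (0.03), quantile normalization (0.02) and without KO 1 (0.011), and it was lowest without WT 1 (-0.15). Sphk1, a kinase that makes sphingosine 1-phosphate, was at 3.13 and 2.85 FPKM in KO and 5.95 and 3.83 FPKM in WT, and Plpp1, a lipid phosphatase, at 2.78 and 2.3 FPKM in KO and 4.63 and 3.2 FPKM in WT. S1pr2, a receptor that restrains migration, was at 1.29 and 1.99 FPKM in KO and 1.06 and 0.69 FPKM in WT. It reached the filter only through its KO mean, and without it 2 of 11 lay above and 4 below. None of the genes of this list passed.

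Other integrins and adhesion molecules had 17 of 22 tested, 10 above and 3 below WT (19.7% and 31.7% of all genes tested), and a median of 0.40. That median ran from 0.15 without KO 2 to 0.75 without KO 1, and was 0.16 with no filter. Selplg, the selectin ligand PSGL-1, was at 52.4 and 64.28 FPKM in KO and 38.86 and 36.84 FPKM in WT. Itgam, the alpha chain of Mac-1 and a neutrophil list gene, was at 39.22 and 68.86 FPKM in KO and 25.94 and 27.85 FPKM in WT, and Itgb3 at 7.17 and 9.92 FPKM in KO and 5.52 and 5.22 FPKM in WT. Cd24a, the heat stable antigen used to tell Hardy fractions apart, was at 576.02 and 444.83 FPKM in KO and 829.95 and 839.49 FPKM in WT (log2 change -0.72 ± 0.23, adjusted p = 0.37, limma), with groups that did not overlap.

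Signalling genes below the receptors and integrins were mostly on the high side. Of 26 integrin signalling genes 21 were tested, 10 above and 1 below WT (median 0.19), and of 28 genes of receptor signalling 27 were tested, 16 above and 0 below (median 0.19), where 19.7% of all genes tested lay above and 31.7% below. Without KO 2 the medians were 0.055 and 0.092, without KO 1 they were 0.27 and 0.33, and with rescaling without the neutrophil list 0.32 and 0.33. The first was also 0.055 with no filter and 0.12 without WT 2. Zyx, zyxin of focal adhesions, was at 57.81 and 82.96 FPKM in KO and 33.94 and 33 FPKM in WT (log2 change 1.03 ± 0.21, adjusted p = 0.293, limma), and Pxn, paxillin, which binds the alpha 4 chain, at 37.06 and 52.39 FPKM in KO and 24.73 and 23.19 FPKM in WT. Vcl and Rasgrp2 had log2 changes of 0.77 and 0.35. Arrb2, an arrestin that ends receptor signals, was at 111.75 and 165.11 FPKM in KO and 75.09 and 66.5 FPKM in WT (log2 change 0.93 ± 0.23, adjusted p = 0.337, limma), and the G protein regulators Rgs14, Rgs3 and Rgs19 had log2 changes of 0.62, 0.59 and 0.58. Neutrophils are known to express many of these genes, their marker list was higher in the same libraries, and its part was not tested.

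Relatives and regulators of Klf2 had all 16 tested, 6 above and 2 below WT (19.7% and 31.7% of all genes tested), and a median of 0.04. That median was -0.047 without KO 1 and ran up to 0.17 with rescaling without the neutrophil list. Klf7 was at 4.5 and 6.28 FPKM in KO and 2.58 and 3.02 FPKM in WT, Klf10 at 17.39 and 13.72 FPKM in KO and 9.56 and 11.28 FPKM in WT, and Klf6 at 38.66 and 49.08 FPKM in KO and 24 and 33.56 FPKM in WT. Mapk7, which encodes ERK5, a kinase known to induce Klf2, was at 16.44 and 13.24 FPKM in KO and 10.92 and 10.63 FPKM in WT (log2 change 0.42 ± 0.16, adjusted p = 0.394, limma). Of the 16 log2 changes 10 were positive and 6 negative. Among the negative ones were Mef2c at -0.55, Mef2d at -0.42 and Foxo1 at -0.33 (adjusted p = 0.416, 0.519 and 0.62, limma). Klf7, Klf10, Klf6 and Mapk7 had the smallest p of the list, and in each the KO-labelled libraries lay above WT. Groups that do not overlap came with that choice, so these 4 are no contrast to Klf2, whose groups overlapped.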

How the data were processed

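RNA was sequenced from 4 libraries of sorted marrow B cells, 2 labelled ADAR1 KO and 2 WT. The authors deposited FPKM per Ensembl gene, rounded to 2 decimals, per the file headers; mm9 is named in the submitters' processing notes, and the sources used here do not give the aligner or the counting. Symbols came from GENCODE M21 (GRCm38), for 55394 of 55573 identifiers. Coordinates are GRCm38. Fragments per gene were estimated from FPKM and union exon length in GENCODE M21, a GRCm38 annotation and not an mm9 one. The products fell on whole multiples in 99.3% to 99.5% of low values (tolerance 0.15 fragments, chance 30%). Such counts cover counting error only.

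Log2(FPKM + 1) was tested with limma 3.58.1 in R 4.3.3 (mean-variance trend, no covariate, two-sided, Benjamini-Hochberg over the 13281 genes averaging 1 FPKM or more in either group, threshold 0.05). This scale understates changes of low genes. The test was checked on simulated data, where it recovered large changes but missed most smaller ones. The simulation gave all libraries the same spread, while KO 1 and KO 2 differed more from each other than the WT libraries did. It thus does not show which changes of the members the test could find. It also made more false calls there than the threshold allows. Members, lists and alternatives were chosen with earlier results of these data known. Beside the members, the text names Adar, markers, up to 4 genes a list with the smallest p, and genes like each member in profile. Ptk2b, Mef2c, Mef2d and Foxo1 were named outside this rule, after their values were seen.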

Additional observations from a re-analysis of the deposited data

How the results depend on the processing

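None of the 8 members passed in 13 of 14 other settings. Without KO 1, 2 passed, so the range over left-out libraries was 0 to 2, and 0 to 29 for the related lists, which had 3 calls (Ccr1, Cxcr2 and Zyx) with B-lineage scaling and 0 in the other settings. Calls over all genes were 27, against 15 with a pseudocount of 0.1, 0 with no filter, 250 (166 higher, 84 lower) with B-lineage scaling, 9 with voom on estimated fragments, and 8 to 1619 over left-out libraries (8 without KO 2, 1619 without KO 1, 45 without WT 1, 47 without WT 2). Same-numbered libraries deviated with a correlation of -0.149, but 2 libraries a group cannot settle whether the numbers pair the samples. A replicate block gave 68 calls, and a crossed block, added after seeing the data, 213, with 0 members in either. S1pr1 and Ccr7 kept their direction in all 14 settings. With B-lineage scaling the log2 changes turned to 0.28 for Cxcr4, 0.59 for Cxcr5, 0.17 for Gpr183, 0.34 for Itga4 and 0.48 for Itgb1. Cxcr5 also turned with median centring (0.0496), quantile normalization (0.0594) and rescaling without the neutrophil list (0.0908), as did Itgb1 with the last (0.0022). Over left-out libraries Cxcr5 ran from -0.17 to 0.13, Itgb1 from -0.299 to 0.0406 and Klf2 from -0.0436 to 0.367. The stricter filter leaves out Cxcr5 and Gpr183. Depth limits Gpr183 and Ptk2, at 80 fragments or fewer a library.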

Other observations

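Cd69, chosen after its values were seen, encodes a surface protein known to pull S1PR1 into the cell. It was at 28.54 and 14.18 FPKM in KO 1 and KO 2 and at 6.8 and 21.25 FPKM in WT 1 and WT 2. The WT values lay far apart, and both groups overlapped.

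Cxcl12, the CXCR4 ligand made by stroma, was listed at 1.29 and 2.11 FPKM in KO and 2.87 and 1.06 FPKM in WT, and the macrophage gene C1qa at 36.66 and 56.52 FPKM in KO and 78.92 and 42.17 FPKM in WT, with Vcam1 highest in WT 1 as C1qa was. Col1a1, a collagen of stroma and bone, was at 0.4 and 9.91 FPKM in KO and 0.84 and 0.34 FPKM in WT.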
